A study of Rattus norvegicus with 8 samples.

Results

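The enzymes described here build glycerolipids and phospholipids, and they were followed as 8 genes: Gpd1, Gpam, Agpat2, Lpin1, Dgat1, Dgat2, Cds1 and Crls1. Members were chosen by name, as probe sets of an Affymetrix whole-genome rat array annotated to exactly 1 of these symbols. All 8 were measured, by 13 probe sets, among 14217 genes that carry a probe set of their own. Of the 8 genes, 5 had 2 probe sets and 3 had 1. Each gene is represented by whichever probe set was brightest on average in the single animals, and the other is given beside it.

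Ovaries of female Sprague-Dawley rats of 15 weeks of age were compared. The DHT group carried a silicone capsule that released 83 µg of 5α-dihydrotestosterone per day for 12 weeks, an androgen treatment used to model polycystic ovarian syndrome, and the CTL group carried an empty capsule. RNA of the ovarian cortex, a tissue of many cell types, was read on 3 arrays of single rats and 1 array of the pooled RNA of the same 3 rats in each group. Of the 7 granulosa cell markers measured, 0 lay at the background of the arrays in all 6 animals.

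Glycerolipids are made by adding fatty acids to a glycerol backbone. Glycerol-3-phosphate receives a fatty acid from Gpam and another from Agpat2, which gives phosphatidic acid, the branch point of the pathway. On one branch, lipins such as Lpin1 remove the phosphate and Dgat1 or Dgat2 close the molecule to triacylglycerol, the fat stored in lipid droplets. On the other branch, Cds1 activates phosphatidic acid with CTP to CDP-diacylglycerol, from which inositol lipids and, in mitochondria, cardiolipin are made, the last by Crls1. Luteal and theca cells of the ovary hold many lipid droplets, and cardiolipin is a lipid of the inner mitochondrial membrane, where the first step of steroid synthesis takes place.

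Crls1 was the member that changed past the criteria, and it rose in DHT-treated ovaries, while Cds1, Gpd1, Agpat2 and Lpin1 had lower values in every DHT animal than in any CTL animal without passing them. Dgat1, Dgat2 and Gpam overlapped between the groups. Calls needed at least a 2-fold change, a limma p no higher than 0.01 and, after the Benjamini-Hochberg adjustment across 31042 probe sets, a false discovery rate no higher than 10%. By that rule 1 of the 8 genes was called higher and 0 were called lower, where over all probe sets 0.68% were called higher and 0.351% lower. After quantile normalization of the arrays 0 of the 8 were called, and the shares over all probe sets became 0.28% higher and 0.277% lower. At an unadjusted p under 0.05, 4 members were lower (3.92% of all probe sets) and 1 was higher (7.94%). The groups did not overlap, with every DHT animal below every CTL animal, for 4 of the 8 genes, against 6.85% of all probe sets, and every DHT animal lay above every CTL animal for 1, against 10.6%. The median log2 fold change of the 8 genes was -0.45, and that of all probe sets was -0.029. These sets are unlike in brightness: 0 of the 8 genes were near background in all 6 animals, against 10585 of the 31042 probe sets. With such dim probe sets left out, the median of the remaining 20457 was 0.034, with 175 called lower and 262 higher.

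CTL replicate 3 stood apart from the other arrays. Its Pearson r with the other 5 animals, across probe sets that are not independent replicates, was 0.866 to 0.907, against 0.984 to 0.995 between the DHT replicates and 0.983 between CTL replicates 1 and 2. Gapdh mRNA is read by separate control probe sets near its 3' and 5' ends, whose gap grows as RNA is shortened. On the log2 scale this gap measured 0.39 for CTL replicate 1, 0.62 for CTL replicate 2 and between 2.99 and 3.98 for each of the 4 remaining animals. Results are also given without CTL replicate 3. That animal, at 3.49, was the only CTL animal with a gap like that of the DHT animals. Without it, the gap and the treatment cannot be told apart. A fit with the gap as a covariate rests on CTL replicate 3 to separate them. With 3 animals per group, an exact two-sided permutation test cannot give a p below 0.1.

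**Figure D1:**
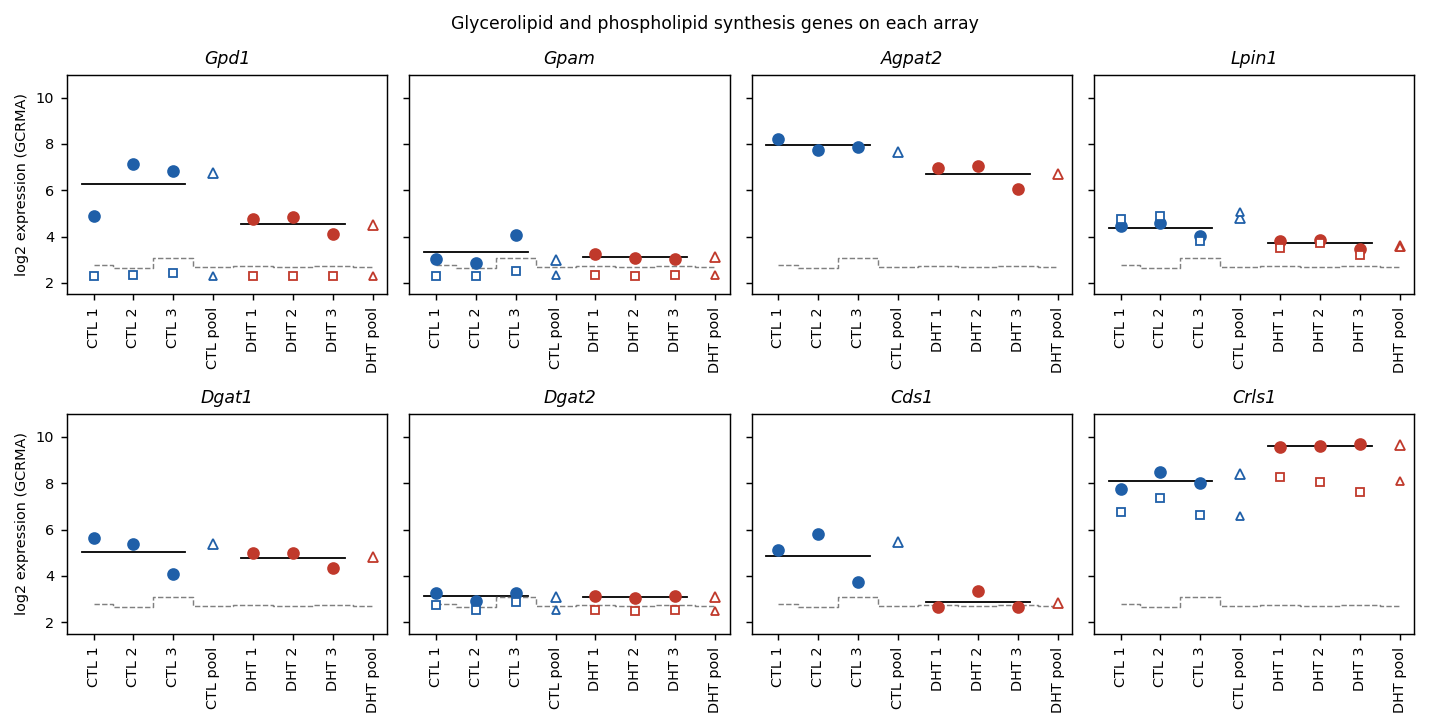
Log2 expression (GCRMA, vertical axis) of the 8 genes on the 8 arrays (horizontal axis), CTL in blue and DHT in red. Filled circles are the probe set that stands for the gene, open squares its other probe set, open triangles (smaller for the other probe set) the arrays of pooled RNA, black lines the means of 3 animals and the dashed line the background level of each array. Crls1 lies between 9.56 and 9.69 in the DHT animals and between 7.76 and 8.50 in the CTL animals.

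RefSeq promoters matched 5 of the 8 genes, and those of Gpd1, Dgat1 and Dgat2 were not among them. The 250 bases before the start are shown for Crls1, the gene called, and for Agpat2, Lpin1 and Cds1, whose groups did not overlap, higher in DHT for Crls1 and lower for the other 3. Positions are of GRCr8 (RefSeq), the sequences run 5′ to 3′ on the strand of the gene, and capitals mark motifs. They lie at chr3:140572485-140572734 on the plus strand for Crls1, and on the minus strand at chr3:29826158-29826407 for Agpat2, chr6:45108943-45109192 for Lpin1 and chr14:8187244-8187493 for Cds1.
Crls1: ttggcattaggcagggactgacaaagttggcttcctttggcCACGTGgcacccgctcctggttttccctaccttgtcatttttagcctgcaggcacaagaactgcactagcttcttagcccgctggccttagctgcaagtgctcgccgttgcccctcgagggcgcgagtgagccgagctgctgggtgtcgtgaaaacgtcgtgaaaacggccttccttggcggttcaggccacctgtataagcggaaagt
Agpat2: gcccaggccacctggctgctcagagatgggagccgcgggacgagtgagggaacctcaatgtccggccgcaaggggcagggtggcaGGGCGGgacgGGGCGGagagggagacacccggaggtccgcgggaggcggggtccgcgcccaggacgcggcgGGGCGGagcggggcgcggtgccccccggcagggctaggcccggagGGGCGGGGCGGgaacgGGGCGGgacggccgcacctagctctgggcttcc
Lpin1: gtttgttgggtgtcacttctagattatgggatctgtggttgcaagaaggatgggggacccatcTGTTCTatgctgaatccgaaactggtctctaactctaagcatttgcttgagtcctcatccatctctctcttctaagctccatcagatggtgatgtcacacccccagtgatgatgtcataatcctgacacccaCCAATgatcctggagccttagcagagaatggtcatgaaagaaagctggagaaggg
Cds1: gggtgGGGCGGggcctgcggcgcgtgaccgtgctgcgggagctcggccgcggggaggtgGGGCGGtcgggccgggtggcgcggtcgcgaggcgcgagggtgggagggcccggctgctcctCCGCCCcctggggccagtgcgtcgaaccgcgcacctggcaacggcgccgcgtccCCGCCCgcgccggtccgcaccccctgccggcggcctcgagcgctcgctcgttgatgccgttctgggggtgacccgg

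The motifs were searched on both strands in 33469 promoters of the same length. Crls1 held an E-box, CACGTG, from 209 to 204 bases before its start, a motif found in 5.59% of promoters, and none of the other 3 sequences shown held it. Agpat2 held the GC box, GGGCGG, 6 times, with 1 pair that overlap by a base, and Cds1 held it 4 times, where 30.5% of promoters held it at least once. Lpin1 held the CCAAT box (34% of promoters) from 55 to 51 bases before its start and the hexamer AGAACA of the androgen response element (17.5%) on its other strand. The sterol regulatory element TCACNCCAC (0.974%) and the site of the steroidogenic factor SF-1, CAAGGTCA (1.33%), were in none of the 5 matched promoters. The GC content of the window was 81.2% for Cds1, 78.4% for Agpat2, 57.2% for Crls1 and 47.2% for Lpin1, against a median of 51.2% over all promoters. These matches describe letters only.

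Gpd1, the cytosolic dehydrogenase that makes glycerol-3-phosphate from a glycolytic intermediate, opens the pathway. Its log2 value was 4.91, 7.13 and 6.83 on CTL replicates 1, 2 and 3 and 4.75, 4.83 and 4.12 on the DHT replicates. CTL replicate 1 thus lay next to the DHT animals, and the other CTL animals lay well above them. The means were 6.29 ± 1.21 (SD, n = 3) in CTL and 4.56 ± 0.39 (SD, n = 3) in DHT-treated ovaries, which differed by -1.73 on the log2 scale (standard error, SE, 0.64, limma adjusted p = 0.393). Without CTL replicate 1 it was -2.42 (adjusted p = 0.0957) and Gpd1 was called lower, so leaving out that 1 animal changed its call. Gpd1 was not called without any other single animal, and its call with the pooled arrays is given below. The array of pooled CTL RNA read 6.73, against 6.57 as the log2 of the mean of the 3 animals on the linear scale. The other probe set of Gpd1 was near background in all 6 animals. The study listed Gpd1 as repressed from these same samples, so its direction is not independent evidence. The main comparison here did not call it.

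Gpam, the mitochondrial acyltransferase that adds the first fatty acid, was dim. Its brighter probe set read 3.03, 2.84 and 4.07 on CTL replicates 1 to 3 and 3.25, 3.08 and 3.03 on the DHT replicates, so the groups overlapped and CTL replicate 3 alone stood well above the others. The background levels were 2.67 to 3.09 on these arrays, and each value stood above that of its own array. The log2 fold change was -0.20 (SE 0.34, limma adjusted p = 0.896), and it was 0.18 without CTL replicate 3. The other probe set was near background in all 6 animals.

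Agpat2, which adds the second fatty acid and makes phosphatidic acid, is the acyltransferase that is lost in a human lipodystrophy. It read 8.22, 7.76 and 7.88 on CTL replicates 1, 2 and 3 and 6.97, 7.03 and 6.07 on the DHT replicates. Each DHT animal lay below each CTL animal, and DHT replicate 3 was the lowest. The means were 7.95 ± 0.24 (SD, n = 3) in CTL and 6.69 ± 0.54 (SD, n = 3) in DHT-treated ovaries, with a log2 fold change of -1.26 (SE 0.30, unadjusted p = 0.00806, limma adjusted p = 0.177). The size and the p of Agpat2 met their limits and the false discovery rate did not. The difference was -1.30 (adjusted p = 0.146) without CTL replicate 3, and -0.93 between the arrays of pooled RNA. The pooled CTL RNA read 7.64, below each of the 3 CTL animals it pools.

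Lpin1, a phosphatidic acid phosphatase that also acts with transcription factors in the nucleus, was measured by 2 probe sets, and in both the DHT animals were all lower than the CTL animals. The probe set with the higher mean read 4.45, 4.59 and 4.04 on CTL replicates 1, 2 and 3 and 3.81, 3.87 and 3.48 on the DHT replicates. Its log2 fold change was -0.64 (SE 0.19, limma adjusted p = 0.26), a change of less than 2-fold. The other read 4.78, 4.91 and 3.80 in CTL and 3.52, 3.71 and 3.20 in DHT-treated ovaries, with -1.02 (SE 0.34, adjusted p = 0.325). In both, CTL replicate 3 was the CTL animal nearest to the DHT animals: the DHT mean was lower than that animal by 0.32 at the first and by 0.33 at the other. Without CTL replicate 3 the first probe set had -0.80 (adjusted p = 0.0641). The arrays of pooled RNA differed by -1.18 and -1.52. The pooled CTL RNA read 4.79 and 5.08, at both probe sets above each of the 3 CTL animals it pools.

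Dgat1 and Dgat2 are unrelated proteins that catalyse the same last step to triacylglycerol. Dgat1 read 5.63, 5.39 and 4.09 on CTL replicates 1, 2 and 3 and 5.01, 5.00 and 4.35 on the DHT replicates. The DHT animals lay below CTL replicates 1 and 2 and above CTL replicate 3. Its log2 fold change was -0.25 (SE 0.46, limma adjusted p = 0.896), and -0.72 (adjusted p = 0.203) without CTL replicate 3. Dgat2 read 2.93 to 3.27 in the CTL and 3.06 to 3.13 in the DHT animals, a little above background, with -0.047 (SE 0.11, adjusted p = 0.896). The other probe set of Dgat2 was near background in all 6 animals, so a change of Dgat2 would have been hard to detect on these arrays.

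Cds1, one of the enzymes that form CDP-diacylglycerol, was above background in each CTL animal and dim in DHT-treated ovaries. It read 5.10, 5.81 and 3.73 on CTL replicates 1, 2 and 3 and 2.67, 3.34 and 2.68 on the DHT replicates. All DHT animals lay below all CTL animals, and DHT replicates 1 and 3 were near background. The means were 4.88 ± 1.06 (SD, n = 3) in CTL and 2.89 ± 0.39 (SD, n = 3) in DHT-treated ovaries, a log2 fold change of -1.99 (SE 0.57, limma adjusted p = 0.257). Only 1 DHT animal stood above background, so the size of this change is uncertain. CTL replicate 3 was the CTL animal nearest to the DHT group, and without it the difference was -2.56 (adjusted p = 0.0415) and Cds1 was called lower. With the Gapdh gap as a covariate it was -0.82 (adjusted p = 0.134). The arrays of pooled RNA read 5.47 in CTL and 2.83 in DHT. The study listed Cds1 as repressed as well, and the main comparison here did not call it.

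Crls1, cardiolipin synthase, moved the other way. Its brighter probe set read 7.76, 8.50 and 8.03 on CTL replicates 1, 2 and 3 and 9.56, 9.59 and 9.69 on the DHT replicates. The DHT animals lay within a narrow band above all CTL animals. The means were 8.10 ± 0.38 (SD, n = 3) in CTL and 9.61 ± 0.064 (SD, n = 3) in DHT-treated ovaries, a rise of 2.86-fold, with a log2 fold change of 1.52 (SE 0.20, limma adjusted p = 0.0656). It was still called without CTL replicate 3, at 1.49 (adjusted p = 0.0555), and missed the limit of the false discovery rate without CTL replicate 1, at 1.35 (adjusted p = 0.107). Without any 1 of the DHT replicates the change was 1.48 to 1.54 with adjusted p of 0.219 to 0.279, and 0 of all probe sets were called there, with 2529 to 2623 at an unadjusted p under 0.05. Crls1 also missed that limit after quantile normalization (adjusted p = 0.194) and with a mean-variance trend (adjusted p = 0.165).

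The other probe set of Crls1 read 6.76, 7.36 and 6.65 on CTL replicates 1, 2 and 3 and 8.28, 8.07 and 7.62 on the DHT replicates. Here too all DHT animals lay above all CTL animals, with a log2 fold change of 1.07 (SE 0.26, limma adjusted p = 0.188), which was not called. The pooled RNA gave 1.27 at the brighter and 1.49 at the other probe set. At the other probe set the pooled CTL RNA read 6.59, below each of the 3 CTL animals it pools. The study listed Crls1 as activated, from these same samples.

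**Figure D2:**
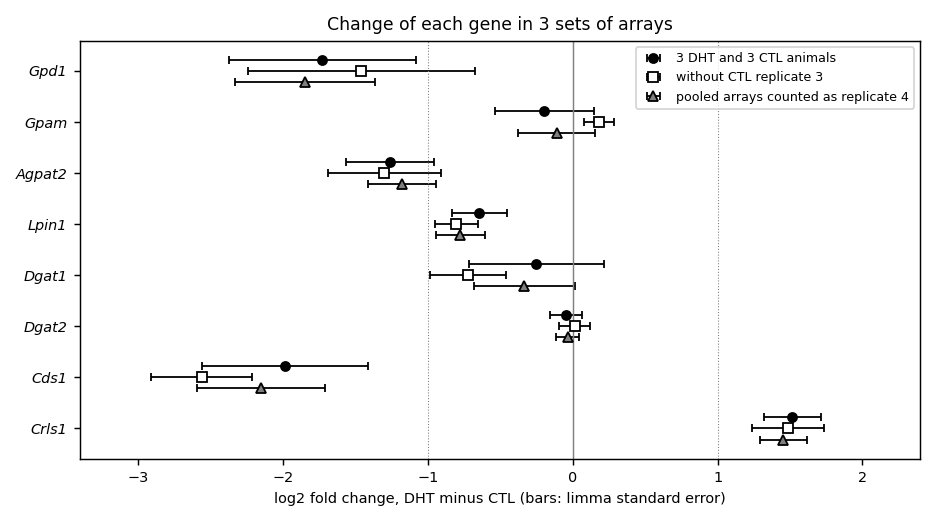
Log2 fold change of each gene (horizontal axis, DHT minus CTL) with its limma standard error. Black circles are the 3 DHT and 3 CTL animals, open squares leave out CTL replicate 3, grey triangles count the pooled arrays as replicate 4, and dotted lines mark a 2-fold change. Crls1 is the gene to the right of them, at 1.52, and Cds1 lies farthest to the left, at -1.99.

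With the pooled arrays counted as replicate 4 of each group, which repeats RNA of the same animals and so makes p too small, Cds1 (-2.15, limma adjusted p = 0.0358), Gpd1 (-1.85, adjusted p = 0.0792) and Agpat2 (-1.18, adjusted p = 0.0312) were called lower and Crls1 (1.46, adjusted p = 0.00427) higher. In that fit 1.39% of all probe sets were called lower and 1.72% higher. With the Gapdh gap between its ends as a covariate, Crls1 was 1.54 (adjusted p = 0.0239) and was called. That fit called 8.56% of all probe sets higher and 3.5% lower. In it 18153 of the 31042 probe sets had an unadjusted limma p under 0.05, against 3681 in the main comparison. A small adjusted p there thus says little about any 1 gene. There the change was -2.21 (adjusted p = 0.132) for Gpd1, -1.04 (adjusted p = 0.13) for Agpat2 and -0.29 (adjusted p = 0.156) for Lpin1. Dgat1 turned to 0.74 (adjusted p = 0.0483) in that fit and Gpam to -0.89 (adjusted p = 0.0342), both below a 2-fold change.

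Another 75 genes of lipid synthesis, storage and their regulators were listed by role, and 72 of them were measured. Of these, 0 were called lower and 0 higher in limma, with 3 lower and 5 higher at an unadjusted p under 0.05. The DHT animals lay entirely below the CTL animals for 5 (6.94%) and above for 7 (9.72%), against 6.85% and 10.6% of all probe sets. These shares are near the background. Their median log2 fold change was -0.042, and 13 were near background in all 6 animals.

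**Figure D3:**
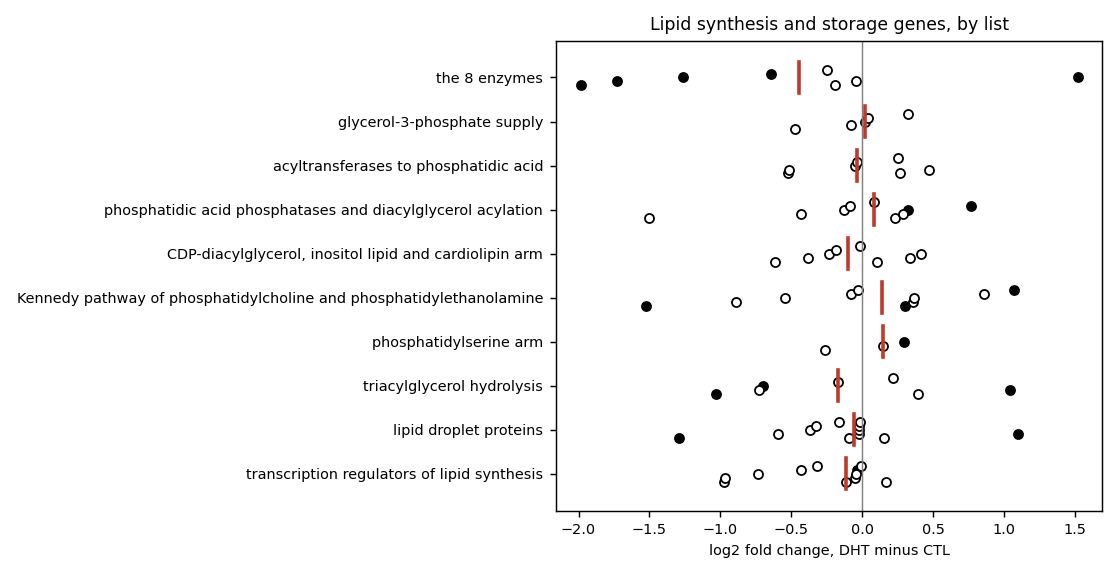
Log2 fold change (horizontal axis, DHT minus CTL) of the 8 enzymes and of the other measured genes in each of 9 lists, with the median of each list as a red bar. Filled points are genes whose DHT and CTL animals did not overlap, 5 among the 8 enzymes. The median of the 8 enzymes lies at -0.45 and those of the lists lie between -0.17 and 0.14.

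The steps next to Crls1 and Cds1 were not called. Genes of the arm from CDP-diacylglycerol to inositol lipids and cardiolipin had 0 of 8 called in either direction and a median of -0.10. Tamm41, which makes CDP-diacylglycerol inside mitochondria, had -0.38 (SE 0.38, limma adjusted p = 0.896). Pgs1, which makes phosphatidylglycerophosphate from it, had -0.61 (adjusted p = 0.532), and Ptpmt1, which removes the phosphate before Crls1 acts, had 0.34 (adjusted p = 0.633). Tafazzin, which remodels the fatty acids of cardiolipin, had 0.10 (adjusted p = 0.941). Tamm41, Ptpmt1 and Tafazzin were named for their place beside Crls1 after their values had been seen. Cdipt, which makes phosphatidylinositol, had -0.24 (adjusted p = 0.418), and the relative of Cds1, Cds2, was near background on its probe set. The difference between Crls1 and these genes was not tested.

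In the arm that makes phosphatidylcholine and phosphatidylethanolamine, 0 of 10 measured genes were called in either direction. Pcyt2, which makes CDP-ethanolamine, read 6.51, 7.03 and 5.22 on CTL replicates 1, 2 and 3 and 4.91, 4.67 and 4.60 on the DHT replicates, with -1.53 (SE 0.48, limma adjusted p = 0.302). Cept1, which joins CDP-choline or CDP-ethanolamine to diacylglycerol, read 6.74, 6.70 and 5.43 in CTL and 7.35, 7.36 and 7.36 in DHT-treated ovaries, with 1.07 (adjusted p = 0.369). The groups did not overlap in either gene, with Pcyt2 lower and Cept1 higher in the DHT animals. In both, CTL replicate 3 was the lowest CTL animal. Against CTL replicates 1 and 2 alone, Cept1 differed by 0.64 and Pcyt2 by -2.05. Without CTL replicate 3, Pcyt2 was called lower, as were Chka, Nr1h2 and Scap, where 3.12% of all probe sets were called lower and 2.11% higher. Chka, Nr1h2 and Scap are given because that count is small, after their values had been seen. The call of Scap is not stable in direction, since with the Gapdh covariate it was called higher, and Nr1h2 was higher there at an unadjusted p under 0.05. The study listed Pcyt2 as repressed too, and the main comparison here did not call it. With the pooled arrays counted as replicate 4, Pcyt2 was called lower, as were 1.39% of all probe sets.

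Among the 7 genes of triacylglycerol hydrolysis, Pnpla2, the first lipase of the lipid droplet, had -1.03 (limma adjusted p = 0.337), and G0s2, a protein that inhibits it, had 1.04 (adjusted p = 0.419). Every DHT animal was below every CTL animal for Pnpla2 and above for G0s2. Of the 12 lipid droplet proteins, Plin2, the coat protein of droplets in most cells, read 10.58, 8.87 and 8.30 on CTL replicates 1, 2 and 3 and 7.96, 8.28 and 7.64 on the DHT replicates, with -1.29 (adjusted p = 0.52). Plin3, another coat protein, had 1.10 (adjusted p = 0.579), and 0.46 against CTL replicates 1 and 2 alone. None of these 4 genes was called in the main comparison. Of the 11 regulators, Srebf1, the transcription factor that drives fatty acid synthesis, had -0.44 (adjusted p = 0.446), and Srebf2, its relative for cholesterol synthesis, had -0.97 (adjusted p = 0.849).

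In the remaining lists no gene was called. Gk, which phosphorylates glycerol, had -0.47 (limma adjusted p = 0.568) and Gpd2, the mitochondrial glycerol-3-phosphate dehydrogenase, had 0.32 (adjusted p = 0.59). Of the acyltransferases, Agpat5 had -0.52 (adjusted p = 0.501) and Agpat3 0.27 (adjusted p = 0.695). Plpp2, a lipid phosphate phosphatase, had 0.77 (adjusted p = 0.37), and Dgka, which returns diacylglycerol to phosphatidic acid, had 0.32 (adjusted p = 0.393). For phosphatidylserine, Ptdss1 had -0.26 (adjusted p = 0.896) and Pisd, which turns it into phosphatidylethanolamine, had 0.29 (adjusted p = 0.675).

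Whole tissue was measured, so fewer cells of a type and less RNA per cell cannot be told apart. By the methods of the study, corpora lutea were seen in most CTL ovaries and hardly any in those treated with DHT. Of 10 measured markers of the corpus luteum, 10 were lower on average and 0 were called in limma, and the groups did not overlap for 9. The mean log2 value of the 10 markers was 9.68 to 11.25 in the CTL and 6.17 to 7.76 in the DHT animals. Star, which carries cholesterol into mitochondria, had -3.75 (adjusted p = 0.21), and Cyp11a1, which starts steroid synthesis from cholesterol, had -3.17 (adjusted p = 0.29). A2m had -5.63 (adjusted p = 0.104) and Hsd17b7 -5.64 (adjusted p = 0.106). Of the hormone receptors, Prlr for prolactin had -1.28 (adjusted p = 0.456) and Lhcgr for luteinizing hormone -0.63 (adjusted p = 0.896). The part of this shift in the lower values of Cds1, Gpd1, Agpat2 and Lpin1 was not tested.

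Adipocytes make much Gpd1, Agpat2 and Dgat2. By the methods, other tissue was trimmed from the ovaries. Of 9 measured adipocyte markers, 9 had a lower mean in the DHT group and 0 were called, and 6 were near background in all 6 animals, among them Adipoq, Lep, Plin1 and Cidec, which define the cell type. Cfd, a secreted protease of fat cells, read 5.40, 3.91 and 2.80 in CTL replicates 1, 2 and 3, while the DHT replicates spanned 2.65 to 3.52. Fabp4, a fatty acid binding protein also made by endothelium and macrophages, had -1.72 (limma adjusted p = 0.522), and Lpl, a lipase at the vessel wall, had -1.09 (adjusted p = 0.37), and in both the DHT animals lay below the CTL animals. The mean log2 value of the list was 2.82 to 3.49 in the CTL and 2.59 to 2.70 in the DHT animals. CTL replicate 1, which was highest for Cfd, was the lowest CTL animal for Gpd1 and the highest for Agpat2. The part of these markers in the lower values of Gpd1 and Agpat2 was not tested.

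Of 7 macrophage markers, 7 were lower on average and 1, Ctss, was called lower, with means of 5.16 to 5.86 in CTL and 4.50 to 4.73 in DHT animals. Of 4 endothelial markers, 3 were lower and 1 was higher on average, and 0 were called. Their means were 5.65 to 6.31 in CTL and 5.09 to 5.64 in DHT animals. Pecam1 had -1.10 (limma adjusted p = 0.278) and Kdr -1.16 (adjusted p = 0.268). Vwf, the higher marker, had 0.35 (adjusted p = 0.571) and was named after its value had been seen. Higher values were seen for theca cells, where Insl3 was called, with means of 4.28 to 6.16 in CTL and 7.35 to 8.40 in DHT animals, and 3 markers were measured. The 7 markers of stroma and smooth muscle had 6.77 to 8.22 in CTL and 8.17 to 8.46 in DHT animals, which overlap, with 0 called, 0.78 (limma adjusted p = 0.0708) for Pdgfra and 1.11 (adjusted p = 0.412) for Lum. Of 7 granulosa cell markers, 1 was lower and 6 were higher on average, and 0 were called. Their means were 7.84 to 8.56 in CTL and 8.48 to 8.75 in DHT animals, which overlap. Amh had 0.97 (limma adjusted p = 0.238) and Inha 1.79 (adjusted p = 0.265). Cyp19a1 went the other way, with -2.91 (adjusted p = 0.404), and was named after its value had been seen. Of 4 oocyte markers, 2 were lower and 2 higher on average, with a median of 0.09, and 1 was called higher, Zp2, an egg coat protein. Of 3 red blood cell markers 0 were called, and Alas2 was near background in all 6 animals. Hbb had 0.75 (limma adjusted p = 0.896) and read 7.98, 7.80 and 3.56 on CTL replicates 1, 2 and 3. Against CTL replicates 1 and 2 alone its difference was -0.70. The part of these shifts in the rise of Crls1, or in the lower values of Cds1, Gpd1, Agpat2 and Lpin1, was not tested.

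**Figure D4:**
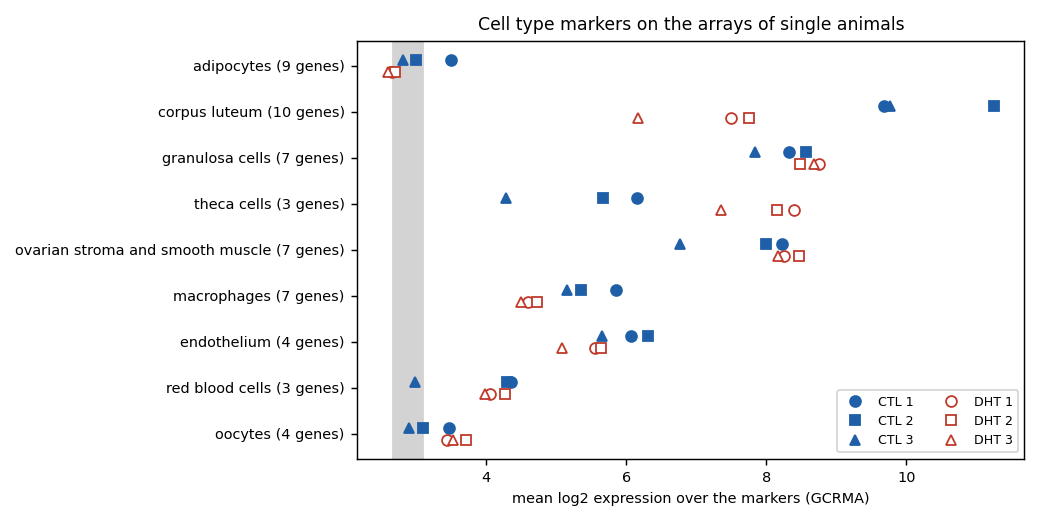
Mean log2 expression over the measured markers of each cell type (horizontal axis) in each single animal, CTL in filled blue and DHT in open red symbols. The grey band spans the background levels of the 6 arrays, 2.67 to 3.09. Corpus luteum markers lie at 9.68 to 11.25 in the CTL and 6.17 to 7.76 in the DHT animals, and adipocyte markers lie near the band.

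Genes with the most similar profile over the 6 animals were listed as a description among 4333 genes that passed the same limits on level and spread. The 6 points are the same 6 arrays for every gene and include the difference between the groups. Crls1 was nearest to Igdcc4 (Pearson r = 0.996), Psip1 (0.993) and Patj (0.99), all called higher. Cds1 was nearest to Nmrk1 (0.998), Dnajc15 (0.997) and Cybb (0.995), the last a subunit of the phagocyte oxidase, and none was called. Gpd1 was nearest to Apc2 (0.994), Sbk1 (0.991) and Miga2 (0.978), and Agpat2 to Prr13 (0.988), Gimap4 (0.985) and Aplnr (0.974). Dgat1 was nearest to Tagln2 (0.999), Mrps23 (0.994) and Clic1 (0.992), and these 3 were not called. Lpin1, Gpam and Dgat2 varied too little over the animals, with an SD under 0.5, to be listed.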

How the data were processed

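RNA of ovarian cortex was hybridised to an Affymetrix whole-genome rat array. The authors normalized the 8 arrays together by GCRMA, which corrects background by probe base composition, and deposited log2 expression per probe set (versions not given in the sources used here). From these values 57 Affymetrix controls were left out, and limma 3.58.1 (linear models with moderated variances, R 4.3.3) compared 3 DHT with 3 CTL single-animal arrays over 31042 probe sets, of which 20826 carry 1 gene symbol. Symbols were updated through Entrez genes to GRCr8. Pooled arrays were left out of the main comparison. Standard errors and adjusted p are from this fit unless said otherwise. The call criteria are those of the study.

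A value counted as near background when it did not exceed, on its own array, percentile 95 of the 29 probe sets for smell and taste receptors. The number of arrays limits the precision. Members, lists, tests and alternatives were chosen with earlier results of these data known. Named are all members, the genes called in each list or else the 2 with the smallest p, the defining markers of adipocytes and corpus luteum, and the 3 genes most similar to each member. Symbols without a probe set of their own were not measured. The method was tested on simulated data. Alternatives were the pooled arrays as replicate 4, the replicate number as a block, quantile or median scaling, a variance trend, removal of dim probe sets, the Gapdh covariate, each animal left out, an adjusted p of 0.05, and averaging the probe sets of each gene.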

Additional observations from a re-analysis of the deposited data

How the results depend on the processing

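The direction of Cds1, Gpd1, Agpat2 and Lpin1 (lower) and of Crls1 (higher) was the same in all 16 alternatives, but many of these could not change it. The replicate block, the variance trend, removal of dim probe sets and an adjusted p of 0.05 keep the main fold change. Leaving out 1 animal cannot reverse the direction of groups that do not overlap. Gpam, Dgat1 and Dgat2 changed sign in some alternatives. Of 8 members, 0 were called lower and 1 higher. The count lower was 3 with the pooled arrays as replicate 4, and 0 to 1 when single animals were left out (Gpd1 without CTL replicate 1, Cds1 without CTL replicate 3). The count higher was 0 with the replicate block, quantile normalization, the variance trend or an adjusted p of 0.05, and 0 to 1 when single animals were left out. Crls1 had limma adjusted p of 0.00427 to 0.279 over its alternatives. Of the other pathway genes, the main 0 lower became 2 with the pooled arrays, Pcyt2 and Pnpla2. That count was 1 with the Gapdh covariate and 0 to 4 with single animals left out, and 0 higher became 9 with the covariate. The median of the members, -0.45, ranged from -0.76 to -0.34 with single animals left out and was -0.76 between the pooled arrays.

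Over all probe sets, 320 were called in limma, 109 lower and 211 higher. With the pooled arrays there were 966 (433 lower, 533 higher), with the Gapdh covariate 3746 (1088 and 2658), with the variance trend 61 (40 and 21), at an adjusted p of 0.05 28 (10 and 18), and with quantile normalization 173, with 87 higher. Leaving out dim probe sets gave 175 lower. With single animals left out the count ran from 0 to 1622, 0 to 968 lower and 0 to 654 higher, and it was 0 without any DHT replicate, where 2529 to 2623 had an unadjusted p under 0.05. The share of calls that were higher, 65.9%, was 50.3% after quantile normalization.

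The methods of the study describe no pairing of the animals by replicate number. Same-numbered deviations from the group means correlated at -0.074, 0.44 and 0.34, and differently numbered ones at -0.53 to 0.48. With 3 animals per group these values cannot show whether the animals were paired. With the replicate block 0 probe sets were called, 0 lower and 0 higher, and 3817 had an unadjusted p under 0.05. Crls1 then had an adjusted p of 0.181. The causes were not tested.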
